A study of Bos taurus with 6 samples.

Results

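ADORA2B, CNR2, CALCRL and SLC6A4 encode 3 receptors and 1 transporter through which blood cells respond to adenosine, cannabinoids, peptides of the calcitonin family and serotonin. They were examined in RNA of white blood cells of cattle before and after severe cold. The members are all probe sets whose platform annotation gives a single gene symbol equal to one of these names, which are 6 of the 12763 probe sets of the table, and 4 of the 6337 genes named by single-symbol probe sets. ADORA2B and SLC6A4 had 1 probe set each, and CNR2 and CALCRL had 2 each. The 4 genes were picked with the difference between the groups already known, so that difference is given here as a description, with no test.

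The after cold group held 3 arrays (numbered 1, 2 and 3) and the before cold group 3 (numbered 4, 5 and 6), all from female heifers of the Sanhe breed kept in the same cowshed. For the cold exposure the animals stood outside for 3 hours at -32 °C and were then housed at 5 °C for 15 hours. At which point the second blood sample was taken is not stated. The RNA came from 3 animals of the 30 in the study, each bled at both times. The labels do not say which arrays share an animal, so the arrays were compared without pairing. Age is not given, and the before cold samples, from the same animals, are the only controls.

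As background, the ADORA2B receptor binds adenosine, which accumulates outside stressed or hypoxic cells, and raises cAMP inside the cell through a stimulatory G protein. CNR2 is the cannabinoid receptor of immune cells, couples to inhibitory G proteins and is known in humans and mice for its expression in B cells. CALCRL becomes a receptor only together with a RAMP protein: with RAMP1 it binds calcitonin gene-related peptide, and with RAMP2 or RAMP3 adrenomedullin, both of which widen blood vessels. SLC6A4 takes serotonin up into cells and is the transporter by which human platelets load the serotonin they carry in blood.

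The intensities of the deposited table ran from 3.91 to 18225, and the values below are their log2. With limma, 0 of the 12763 probe sets passed an adjusted p of 0.05, which is 0% higher and 0% lower after cold, and 63 had an unadjusted p under 0.05, of which 4 (0.0313% of the table) were higher and 59 (0.462%) lower. The array medians lay between 7.25 and 7.49. Along the first principal component, which held 68.4% of the variance, the arrays scored -23.3, 52.1 and -63.2 after cold and -1.31, -16.3 and 52.0 before. Thus after 3 stood at one end of this axis, and after 2 and before 6 stood together at the other. Those last arrays correlated at 0.995 across probe sets, and no other pair of arrays exceeded 0.986.

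ADORA2B and the probe set Bt.11871.1.S1_at of CNR2 had higher means after cold, by 1.44-fold and 1.47-fold, and SLC6A4 by 1.41-fold. CALCRL had lower means after cold in both of its probe sets, at 0.543 and 0.676 of the level before. The groups did not overlap in ADORA2B or in either CALCRL probe set, and they overlapped in SLC6A4 and in both CNR2 probe sets. Among all probe sets, 2.07% had groups that did not overlap and were higher after cold, and 2.31% did so and were lower. Since the members were chosen on this contrast, nothing is read from their own count.

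**Figure D1:**
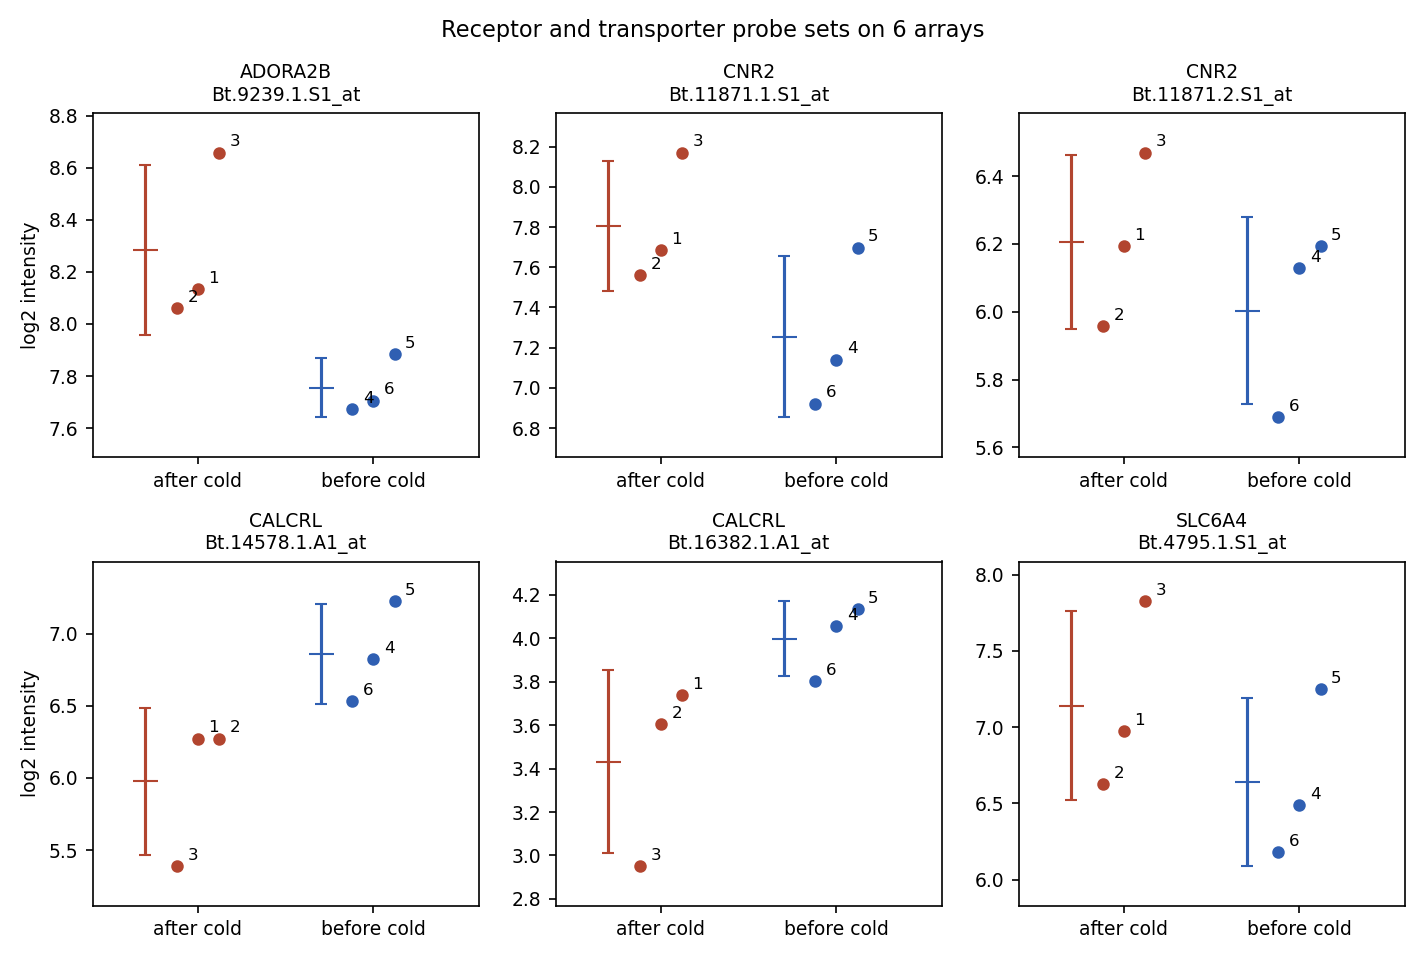
Log2 intensity of the 6 probe sets on each array, with the 3 arrays after cold (red) left of the 3 before cold (blue). Points carry the array number, and the bar beside them is the mean ± SD (n = 3). In ADORA2B, array 3 is highest after cold at 8.66, and all 3 arrays after cold lie above the highest one before cold, at 7.88.

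The ADORA2B probe set (Bt.9239.1.S1_at) was at 8.14, 8.06 and 8.66 after cold, against 7.67, 7.88 and 7.71 before. All 3 arrays after cold lay above all 3 before, with a gap of 0.18 between the nearest values. The arrays before cold lay close together, and after 3 lay apart from the other 2 arrays of its group. The means were 8.28 ± 0.33 after and 7.75 ± 0.11 before cold (SD, n = 3 each), a difference of 0.53 ± 0.27 (SE). Without the after 3 array it was 0.34, and without the after 2 array 0.64.

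CNR2 was read by a pair of probe sets that gave unlike differences. Bt.11871.1.S1_at was at 7.68, 7.56 and 8.17 after cold, against 7.14, 7.70 and 6.92 before. Its means were 7.80 ± 0.32 after and 7.25 ± 0.40 before cold (SD, n = 3 each), and the difference was 0.55 ± 0.31 (SE), or 0.37 without the after 3 array. The before 5 array lay above after 1 and after 2, so that 7 of the 9 possible comparisons of an array after with an array before were positive. The other probe set, Bt.11871.2.S1_at, was at 6.19, 5.96 and 6.47 after cold, against 6.13, 6.19 and 5.69 before. Its difference of 0.20 ± 0.28 (SE) was smaller than the SD within either group. It was 0.07 without the after 3 array, 0.05 without before 6 and 0.33 without after 2. It also belongs to the dimmest 25% of all probe sets. The mean of both CNR2 probe sets differed by 0.38, and the probe sets correlated with each other at 0.86 over the 6 arrays.

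CALCRL had the largest differences among the members. Bt.14578.1.A1_at was at 6.27, 6.27 and 5.39 after cold, against 6.83, 7.22 and 6.53 before. All 3 values after cold lay below all 3 before, with a gap of 0.26 between the groups, and after 3 lay far under the other 2 arrays after cold. The means were 5.98 ± 0.51 after and 6.86 ± 0.35 before cold (SD, n = 3 each), a difference of -0.88 ± 0.34 (SE). Without the after 3 array the difference was -0.59. The second probe set, Bt.16382.1.A1_at, was at 3.74, 3.61 and 2.95 after cold, against 4.05, 4.13 and 3.80 before. It showed the same order of arrays within the group before cold, again with after 3 lowest and with a narrow gap of 0.06 between the groups. Its difference was -0.57 ± 0.29 (SE), and -0.32 without the after 3 array. On the linear scale it lay between 7.74 and 17.6, among the dimmest 25% of the table. No measure of background was used here, and adding 16 to every intensity before the log reduced this difference to -0.25. The CALCRL probe sets correlated at 0.98 over the 6 arrays.

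SLC6A4 (Bt.4795.1.S1_at) was at 6.97, 6.62 and 7.83 after cold, against 6.49, 7.25 and 6.18 before. The groups overlapped, because before 5 lay above after 1 and after 2, and 7 of 9 comparisons between arrays were positive. The means were 7.14 ± 0.62 after and 6.64 ± 0.55 before cold (SD, n = 3 each), so the difference of 0.50 ± 0.41 (SE) was smaller than the SD of either group. It was 0.16 without the after 3 array, 0.27 without before 6, 0.76 without after 2 and 0.81 without before 5.

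These standard errors take the arrays as separate, although each animal gave blood at both times. With the arrays matched as a block, a difference stays as it is and its SE depends on the matching, of which 6 are possible. For SLC6A4 the SE was 0.15 with the matching 1-4, 2-6, 3-5 and 0.49 with 1-4, 2-5, 3-6. Over all matchings it ran from 0.16 to 0.41 for ADORA2B, and from 0.15 to 0.42 for the CNR2 probe set Bt.11871.1.S1_at and 0.15 to 0.41 for its other one. For the CALCRL probe sets it ran from 0.27 to 0.42 (Bt.14578.1.A1_at) and from 0.22 to 0.41. Which matching holds is not stated, so the precision of these differences is not settled.

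**Figure D2:**
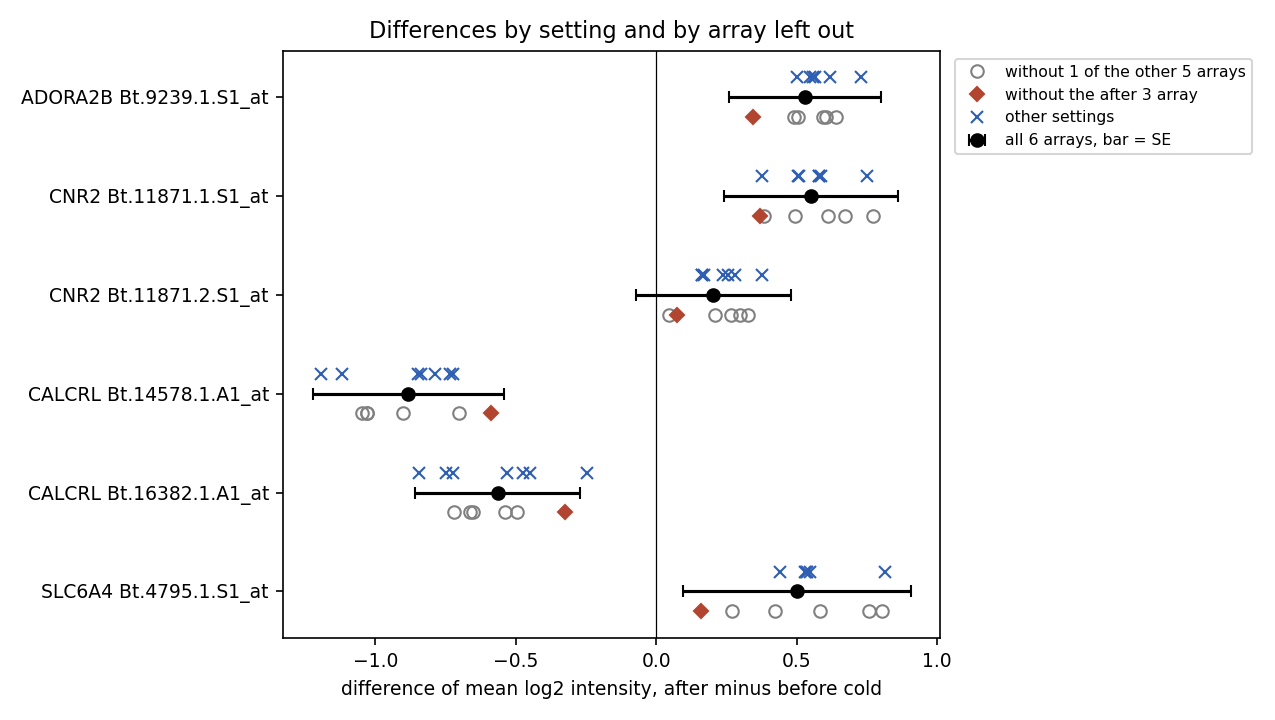
Difference of mean log2 intensity, after minus before cold, for each probe set (black, bar = SE of limma). Below each are the values with 1 array left out, and above it those under the other settings. Leaving out the after 3 array (red) gives the value nearest to 0 among the single omissions in 5 of the 6 probe sets: ADORA2B (0.34), CNR2 Bt.11871.1.S1_at (0.37), both CALCRL probe sets (-0.59 and -0.32) and SLC6A4 (0.16). In CNR2 Bt.11871.2.S1_at it is the omission of before 6 (0.05).

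The after 3 array was thus the highest of all 6 in ADORA2B, in both CNR2 probe sets and in SLC6A4, and the lowest of all 6 in both CALCRL probe sets. With the first principal component the Pearson correlation over the 6 arrays was -0.67 for ADORA2B, -0.76 and -0.94 for the CNR2 probe sets, and -0.88 for SLC6A4. It was 0.38 and 0.41 for the CALCRL probe sets. These are descriptions of 6 arrays, and the part of this axis in the differences after cold was not tested.

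The after 2 and before 6 arrays, which correlated most closely of all, came from different groups. After 2 minus before 6 was 0.35 in ADORA2B, 0.64 and 0.27 in CNR2, 0.44 in SLC6A4, and -0.26 and -0.20 in CALCRL. These arrays are part of the contrast by which the members were chosen, so these values are a description and support nothing. Whether they share an animal is not stated.

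**Figure D3:**
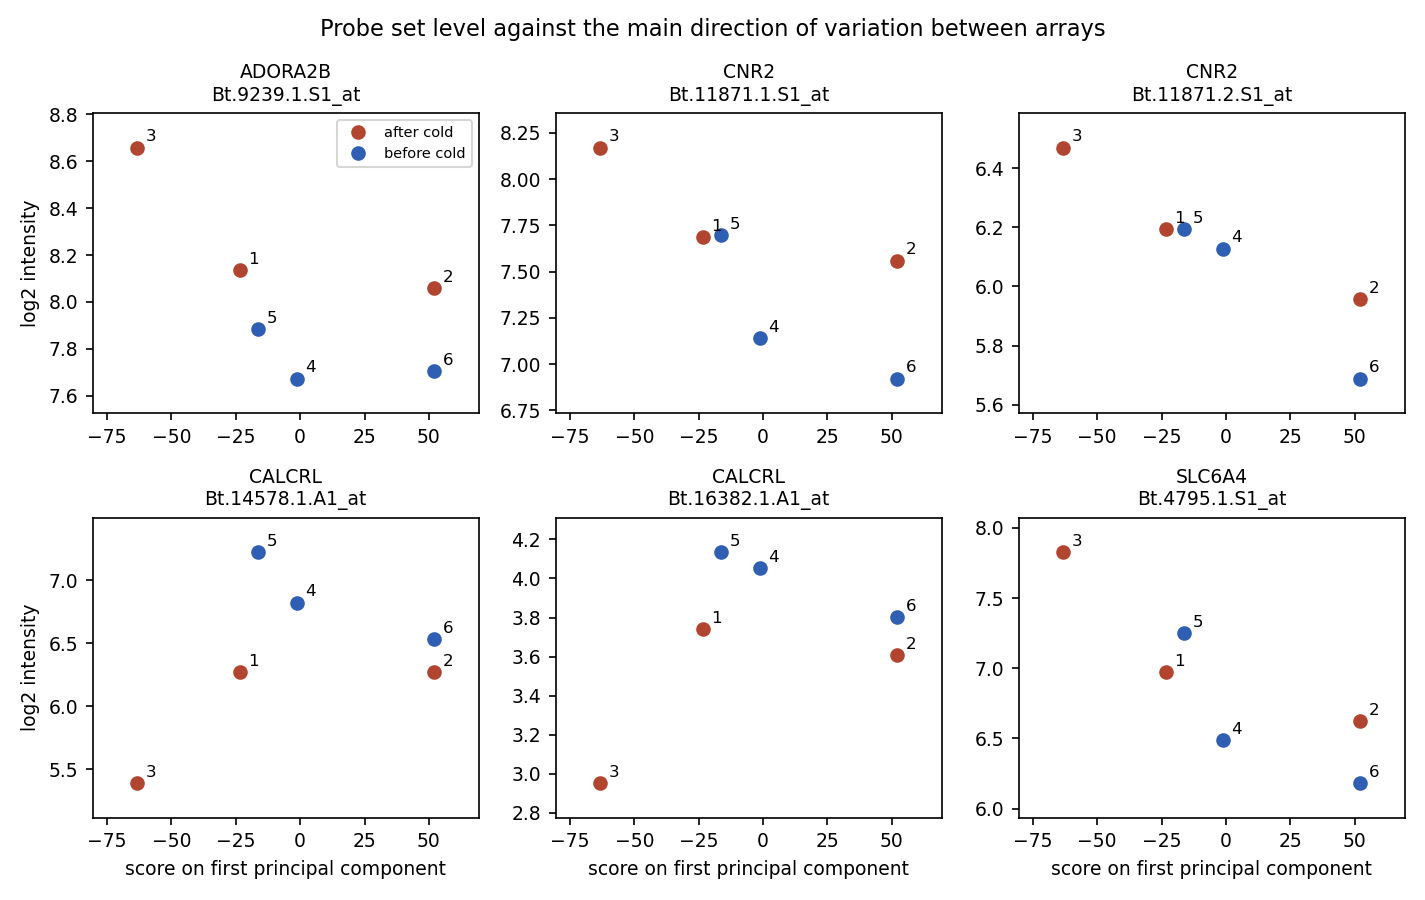
Log2 intensity of each probe set against the array's score on the first principal component of all 12763 probe sets, with arrays after cold in red and before cold in blue, numbered. After 3 lies at the left end, at -63.2, and after 2 and before 6 lie together at the right, at 52.1 and 52.0.

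Between genes, SLC6A4 went along most closely with the CNR2 probe set Bt.11871.1.S1_at, at a correlation of 0.95 over the 6 arrays. ADORA2B correlated with that probe set at 0.91 and with SLC6A4 at 0.85. CALCRL ran the other way, at -0.86 and -0.90 with ADORA2B. Its correlations with SLC6A4, -0.48 and -0.58, were weaker. All these share the same 6 arrays and the same main axis.

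Among the other genes that make, carry or break down adenosine, no gene passed the test. Of 19 genes in this list 9 were measured, 5 with a higher and 4 with a lower mean after cold (median difference 0.01), against a median of 0.05 over all 6337 genes. ADK, the kinase that clears adenosine to AMP, was at 7.23, 7.32 and 5.93 after cold, against 7.72, 7.48 and 7.60 before. It differed by -0.77 ± 0.39 (SE), with after 3 far below all other arrays. Its groups did not overlap, which was so for 1 of the 55 measured pathway genes, against 190 lower and 128 higher of all 6337 genes. DPP4, which anchors adenosine deaminase on human T cells, differed by -0.68 ± 0.37, and its second probe set by -0.56 ± 0.44. The deaminase gene ADA itself differed by 0.01 ± 0.39. The nucleoside transporter genes SLC29A1 and SLC29A2 differed by 0.05 ± 0.32 and 0.23 ± 0.34. Together with SLC6A4, these are the solute carriers among the genes described here. The remaining genes, ENPP1, PNP, AHCY and AMPD2, differed by -0.24 ± 0.68, -0.24 ± 0.26, 0.09 ± 0.31 and 0.20 ± 0.32. The other adenosine receptor genes, and the ectoenzyme genes ENTPD1 and NT5E that form adenosine from ATP, were not analysed here.

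Of 16 genes of the endocannabinoid system 8 were measured, 4 with a higher and 4 with a lower mean after cold and 0 past the test in either direction (median difference 0.02). For the synthesis of the ligands, DAGLB, which makes 2-arachidonoylglycerol, differed by 0.07 ± 0.29 (SE). NAPEPLD, which releases anandamide from its lipid precursor, differed by -0.16 ± 0.34. ABHD4 and GDE1, enzymes of another route to anandamide, differed by 0.28 ± 0.32 and -0.38 ± 0.30. For breakdown, the hydrolases ABHD6 and ABHD12 differed by 0.08 ± 0.26 and 0.14 ± 0.43, and NAAA, an acid amidase of lysosomes, by -0.04 ± 0.31. FABP5, a carrier of fatty acids and anandamide in the cytosol, differed by -0.03 ± 0.25.

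Of 15 genes of the calcitonin peptide family 4 were measured, 1 with a higher and 3 with a lower mean after cold and 0 past the test (median difference -0.09). RAMP2, the partner with which CALCRL binds adrenomedullin, was at 10.41, 9.51 and 10.64 after cold, against 10.36, 10.71 and 9.83 before. Its groups overlapped, and its difference was -0.11 ± 0.38 (SE). RAMP2 was highest on before 5, as CALCRL was, and next highest on after 3, where CALCRL was at its lowest. CRCP, a component of the calcitonin gene-related peptide receptor complex, differed by -0.13 ± 0.39. ACKR3, a scavenging receptor that also takes up adrenomedullin, differed by 0.35 ± 0.31. The peptidase ECE1 differed by -0.06 ± 0.41, and its second probe set by -0.17 ± 0.49. RAMP1, RAMP3 and the peptide genes CALCA and ADM were not analysed here.

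Of 28 genes of the serotonin system 3 were measured, 2 with a higher and 1 with a lower mean after cold and 0 past the test (median difference 0.11). MAOA, the oxidase that breaks serotonin down inside the cell, was at 6.00, 6.07 and 6.41 after cold, against 6.33, 6.92 and 6.18 before. Its groups overlapped, with before 5 the highest array, and it differed by -0.32 ± 0.29 (SE). TGM2, a transglutaminase that can attach serotonin to proteins, differed by 0.16 ± 0.32. ASMT, the last enzyme of melatonin synthesis, differed by 0.11 ± 0.33. The serotonin receptor genes, the tryptophan hydroxylases and the other 18 genes listed for the SLC6 transporter family were not analysed here.

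**Figure D4:**
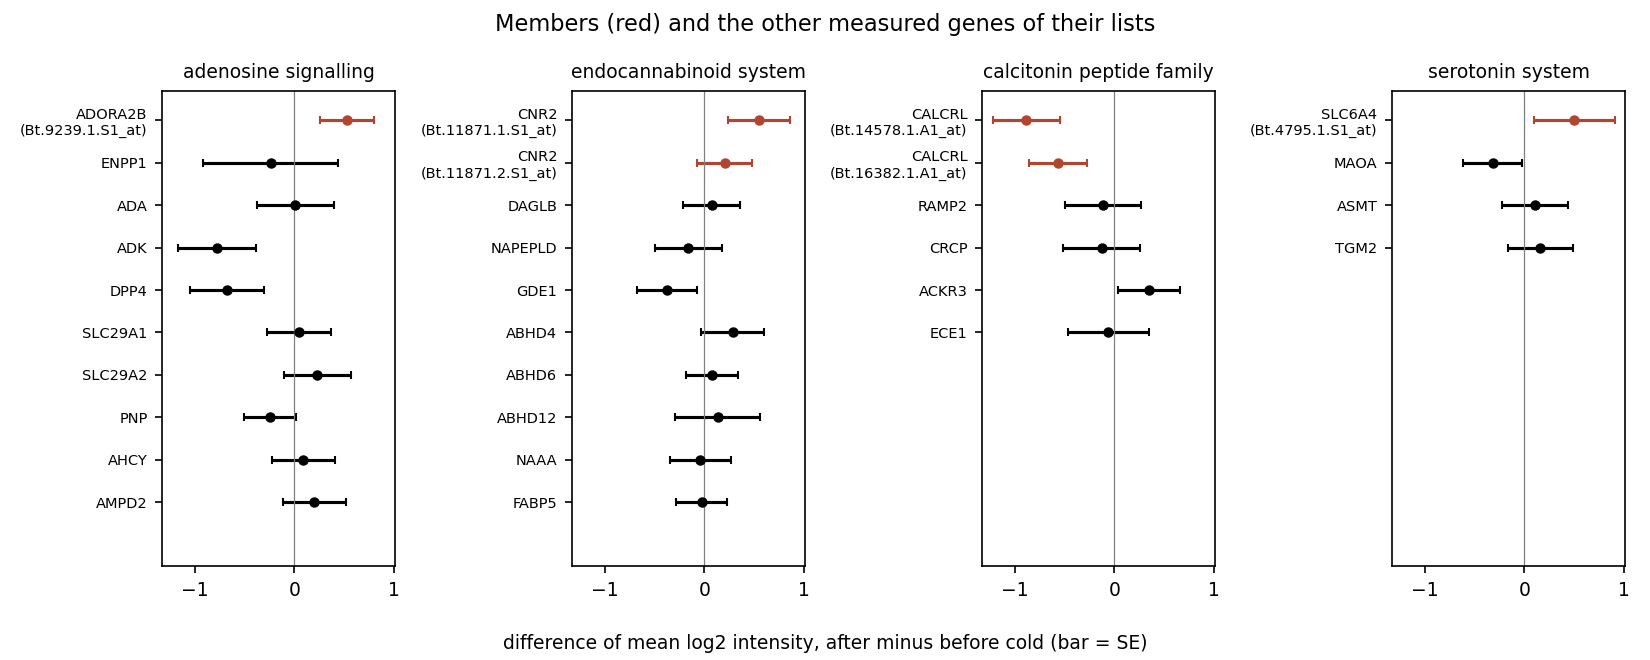
Difference of mean log2 intensity, after minus before cold, with the SE of limma, for the member probe sets (red) and the measured genes of the 4 lists around them (black), 24 genes in all. ADK has the lowest value among the black points, at -0.77, and ACKR3 the highest, at 0.35.

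Downstream of the receptors, 21 of 40 genes of G proteins and cAMP signalling were measured, 11 with a higher and 10 with a lower mean after cold (median difference 0.04) and 0 past the test. PRKACB, a catalytic subunit of the cAMP-dependent kinase, had the lowest value, at -0.82 ± 0.44 (SE). CRTC2, a coactivator of CREB, had the highest, at 0.32 ± 0.31. GNAI2, the inhibitory alpha subunit gene that was brightest in this list, differed by 0.09 ± 0.24. Of 14 genes for receptor desensitisation 10 were measured, 8 with a higher and 2 with a lower mean (median difference 0.17) and 0 past the test. They ran from RGS1, which speeds up the switching-off of G proteins, at -0.67 ± 0.49, to the receptor kinase gene GRK2 at 0.36 ± 0.38. GRK2 gave 0.02 ± 0.36 in its second probe set. RGS19 was the brightest gene of that list and differed by 0.23 ± 0.32. Of the 55 measured genes in all these pathway lists, 31 had means above and 24 means below those before cold, and 0 had an unadjusted p under 0.05 in limma. Over all 6337 genes, 56.3% had a higher mean after cold.

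Markers of the blood cells that may carry these genes were set beside them, as intensities summed over each list and given as log2. The brightest genes weigh most in such a sum, so its correlations need not hold for the dimmer markers of the list. In bulk RNA, fewer cells of a type and less RNA per cell cannot be told apart. Of 14 platelet markers 3 were measured, and their sum was between 12.9 and 13.0 after cold and between 12.9 and 13.4 before. PF4, a platelet granule chemokine, differed by -0.10 ± 0.24 (SE), the integrin gene ITGB3 by -0.38 ± 0.37 and the adhesion receptor gene SELP by 0.06 ± 0.51. The platelet sum was at 12.951, 12.952 and 12.922 after cold, against 12.945, 13.358 and 13.031 before. PF4 and ITGB3, which weigh most in it, were highest on before 5. SELP, the dimmest of the 3, was highest on after 3 (7.48) and lowest on before 6 (5.90), as SLC6A4 was. The correlation of SLC6A4 with the platelet sum was 0.13. With the CALCRL probe sets it was 0.70 and 0.56. PF4 was nevertheless bright in RNA labelled as white blood cells, with a mean of 12.6 over the 6 arrays.

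Of 13 B cell markers 5 were measured, and their sum was between 12.5 and 12.8 after cold and between 12.5 and 12.7 before. Of the 5 genes, 4 had a higher mean after cold (median difference 0.18). POU2AF1, a transcriptional coactivator of B cells, differed by 0.46 ± 0.28 (SE), and MS4A1, the brightest of the list, by -0.19 ± 0.30. In POU2AF1 and in CXCR5 (0.41 ± 0.25) all 3 arrays after cold lay above all 3 before. The sum correlated with the CNR2 probe sets at 0.20 and -0.16 and with ADORA2B at 0.43. The 5 genes did not run together, so these values do not hold for each of them. With the first principal component, MS4A1 and BLK correlated at 0.87 and 0.40, and CD79A, CXCR5 and POU2AF1 at -0.94, -0.63 and -0.41. CD79A was at 10.24, 9.88 and 10.95 after cold, against 10.23, 10.58 and 9.71 before, highest on after 3 and lowest on before 6, as both CNR2 probe sets were. Neutrophil markers, 4 of 12 measured, all had a higher mean after cold (median difference 0.15), from S100A12 at 0.07 ± 0.26 to S100A9 at 0.22 ± 0.30, with the brightest, S100A8, at 0.19 ± 0.30. Their sum was between 14.2 and 14.6 after cold and between 14.0 and 14.6 before, and correlated at 0.91 with SLC6A4 and at 0.86 with the CNR2 probe set Bt.11871.1.S1_at. Monocyte markers, 6 of 11 measured, had sums of 10.5 to 11.2 after and 10.4 to 11.4 before cold, and these correlated at 0.82 with SLC6A4. Of these genes 2 had a higher and 4 a lower mean (median difference -0.18). The scavenger receptor gene MSR1 differed by -0.66 ± 0.28, with all 3 arrays after cold below all 3 before. It alone among the 101 measured genes of all lists had an unadjusted p under 0.05 in limma, against 63 of all 12763 probe sets. CSF1R, the brightest, differed by -0.22 ± 0.42 and VCAN by 0.28 ± 0.43. The neutrophil and monocyte sums were both high on after 3 and before 5, as SLC6A4 was. Red cell markers, 3 of 11 measured, had sums of 12.5 to 12.7 after and 12.3 to 12.5 before cold. They correlated at -0.88 and -0.90 with the CALCRL probe sets and at 0.80 with ADORA2B. All 3 had a higher mean after cold, from the haemoglobin gene HBB at 0.09 ± 0.26 to GYPC at 0.34 ± 0.34. Eosinophil, basophil and mast cell markers, 4 of 12 measured, had sums of 9.33 to 10.2 after and 9.78 to 10.4 before, and correlated at 0.69 and 0.80 with CALCRL. All 4 had a lower mean after cold, from ALOX15, a lipoxygenase of eosinophils, at -0.82 ± 0.55 to FCER1A at -0.15 ± 0.51, with the brightest, CCR3, at -0.29 ± 0.31. The part of these cell types in the members' differences was not tested. Markers of endothelial cells, where CALCRL is known to be abundant, were not analysed here.

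The T cell markers, 13 of 14 measured, had 8 higher and 5 lower means after cold (median difference 0.17), with sums of 14.0 to 14.3 after and 13.7 to 14.4 before. CD3D, the brightest of them, differed by -0.04 ± 0.31 (SE), CD3G by -0.59 ± 0.46 and CD6 by 0.47 ± 0.39. NK and cytotoxic markers, 8 of 11 measured, had sums of 12.5 to 13.1 after and 12.6 to 13.1 before, with 5 higher and 3 lower means (median difference 0.17). The granzyme gene GZMB differed by -0.59 ± 0.27, with all 3 arrays after cold below all 3 before, NCR1 by 0.40 ± 0.38 and CD247, the brightest, by -0.19 ± 0.31. The correlations of both sums with the members lay between -0.49 and 0.38. Of all the markers, 0 passed the test, and the groups did not overlap in POU2AF1 and CXCR5, higher after cold, and in GZMB and MSR1, lower. Over all 6337 genes, the groups did not overlap in 128 that were higher and 190 that were lower. These markers are named as a description only.

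Genes with the pattern most like each member were taken as the 3 with the highest Pearson correlation over the 6 arrays, among genes varying at least 0.5 times as much. With 6 arrays and 5503 to 7814 candidate probe sets, high values are common: 19 probe sets correlated above 0.95 with ADORA2B, and 336 with the CNR2 probe set Bt.11871.2.S1_at. Nearest to ADORA2B were CXCR5 (0.991), the chemokine receptor that guides B cells to follicles, the zinc finger gene ZNF668 (0.986) and a probe set of the inducible chaperone gene HSPA1A (0.985). CXCR5 was at 8.31, 8.24 and 8.64 after cold, against 7.96, 8.03 and 7.96 before. Nearest to the CNR2 probe set Bt.11871.1.S1_at were EEF1AKMT3 (0.994), a methyltransferase of elongation factor, CHST10 (0.959), a sulfotransferase, and THTPA (0.958), a thiamine triphosphatase. Nearest to its other probe set were RBM38, TAOK2 and ASCC2, at 0.996 to 0.997.

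Nearest to the CALCRL probe set Bt.14578.1.A1_at were MRPL30 of the mitochondrial ribosome (0.994), the purine salvage gene HPRT1 (0.994) and the sterol transfer gene GRAMD1C (0.992). Nearest to Bt.16382.1.A1_at were RBM34 (0.997), AP3S1, an adaptor subunit of vesicle transport (0.993), and ZSCAN16 (0.992). Above 0.95 there were 53 probe sets for Bt.14578.1.A1_at and 105 for Bt.16382.1.A1_at. HPRT1, for example, was at 10.60, 10.66 and 9.92 after cold, against 10.97, 11.26 and 10.70 before, which ranks the 6 arrays in the same order as that CALCRL probe set. SLC6A4 was most like RBM14 (0.995), BCL11A, a transcription factor needed for B cell development in mice (0.994), and CD40, the costimulatory receptor of B cells and other antigen-presenting cells (0.994). With SLC6A4, 158 probe sets correlated above 0.95, and the summed B cell markers correlated at 0.17. The markers in that sum were unlike each other. CD79A was highest on after 3 and next on before 5, as SLC6A4 was, and MS4A1 was highest on before 6, where SLC6A4 was lowest. CD40 was at 9.82, 9.42 and 10.43 after cold, against 9.44, 10.05 and 9.11 before, so it too overlapped between groups with before 5 high.

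**Figure D5:**
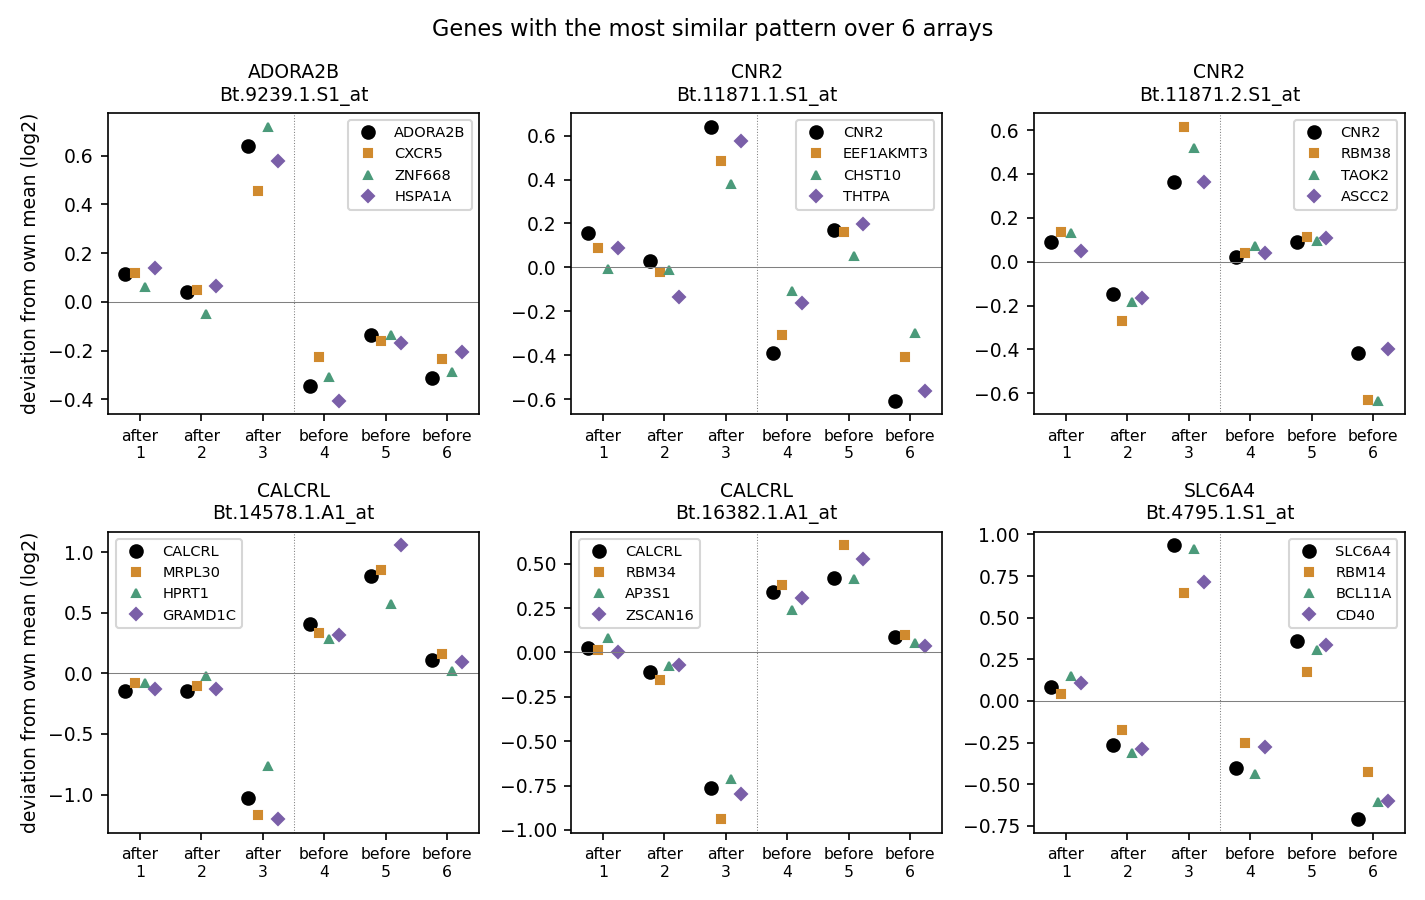
Deviation of log2 intensity from each gene's own mean on the 3 arrays after cold (left of the dotted line) and the 3 before cold (right), for each member probe set (black) and the 3 genes with the most similar pattern (colours). The SLC6A4 panel has its highest points on after 3 and before 5, and in both CALCRL panels after 3 is lowest.

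The nearest measured genes on either side of each member on the chromosome were chosen by position after the members' values were seen. Around CALCRL, WDR75 differed by -0.94 ± 0.45 (SE), with 5 protein-coding genes between them and a correlation of 0.81 with CALCRL over the 6 arrays, and FAM171B by 0.08 ± 0.35 (correlation -0.03). Around ADORA2B, ZSWIM7 differed by -0.22 ± 0.25 and AKAP10 by 0.03 ± 0.33. Around SLC6A4, NSRP1 and BLMH differed by -0.32 ± 0.29 and -0.19 ± 0.29. Around CNR2, PNRC2 differed by -0.49 ± 0.47 and FUCA1 by 0.04 ± 0.31. Apart from WDR75, the correlations of these genes with their member were below 0.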

How the data were processed

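RNA of white blood cells was hybridised to an Affymetrix bovine array. The authors deposited linear intensities, 1 per probe set and array. Per the submitters' processing notes, GCOS and RMA (background correction, alignment of arrays and summary of probes) were used, with versions not stated. The build is not given in the sources used here, so positions and sequences are not printed. The platform annotation named the probe sets, and RefSeq's gene table for ARS-UCD2.0 gave current symbols (0 of 8125 changed) and gene order. The log2 of the intensities was compared, after minus before cold, by limma 3.58.1 (R 4.3.3) for all 12763 probe sets, without pseudocount, filter or block, two-sided, with Benjamini-Hochberg adjustment. Differences carry this model's SE. The fit was tested on simulated data, where it called 7.46% of changes of 1 log2 unit and 49.3% of those of 2 (67 probe sets each). The simulated noise was independent between arrays and probe sets, without shared animals or a main axis. These shares therefore need not hold for the real arrays. Even there most changes of 1 log2 unit were missed, so a count of 0 past the test does not mean that no gene changed. With 3 arrays a group taken as separate, 0.1 is the smallest p that exact permutation allows, and permuting within animals would allow fewer arrangements. The number of arrays limits the precision. Arrays are treated as separate although they come from 3 animals.

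The members and the 16 gene lists were chosen with earlier results of these data known. A gene is represented by its brightest probe set. Further probe sets are given for the members and for some pathway genes. Those of marker genes, such as VCAN with 3 probe sets, are not given. Named genes are the members, the measured genes of the lists of adenosine, cannabinoid, calcitonin and serotonin genes, the extremes and the brightest gene of other lists, and the 3 genes most like each member. The nearest measured neighbours on the chromosome and the B cell markers CD79A and BLK were added after the values were seen. Of the 6 member probe sets, 4 remain when the dimmest 25% of probe sets are left out and 2 when the dimmest 50% are.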

Additional observations from a re-analysis of the deposited data

How the results depend on the processing

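All 6 member differences kept their direction under each alternative run, and none moved by more than the SD within groups. In ADORA2B and both CALCRL probe sets the groups did not overlap, so leaving out or weighting arrays could not turn the sign. The members were chosen on this contrast in these same arrays, so the kept direction is a description and supports nothing. They ran from 0.34 to 0.73 for ADORA2B, 0.37 to 0.77 and 0.05 to 0.38 for CNR2, -1.19 to -0.59 and -0.84 to -0.25 for CALCRL, and 0.16 to 0.81 for SLC6A4. With array weights, whose estimate stopped before converging, SLC6A4 was at 0.81 and ADORA2B at 0.73. These weights ran from 0.0019 for after 1 to 30.7 for before 4, so after 1 hardly counted in that setting. Median centring, quantile and cyclic loess normalization shifted the median of all probe sets by 0.03 to 0.05. Of 206 list medians under alternatives, 28 had the opposite sign, and 5 of 14 lists kept theirs throughout. These were the markers of platelets, of B cells, of neutrophils, of red cells, and of eosinophils, basophils and mast cells. Every pathway list and the NK and monocyte markers turned sign in some setting, and the T cell markers did so only with array weights (-0.24). Monocyte markers ran from -0.56 to 0.17, NK and cytotoxic markers from -0.48 (with array weights) to 0.49, and the calcitonin peptide family from -0.14 to 0.22.

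The 0 probe sets past the threshold stayed 0 in each setting, with limma. In place of 63, the count at an unadjusted p under 0.05 was 27 when the dimmest 50% were dropped, 109 after median centring, 100 after quantile and 102 after cyclic loess scaling, 662 with array weights, and 1234 when after 2 and before 6 were both left out. Leaving out each array gave 5 (without after 3) to 1787 (without after 2). The labels' numbers are not shared between groups, so each matching of arrays was fitted as a replicate block. It gave 33 (1-4, 2-5, 3-6), 1168 (1-4, 2-6, 3-5), 24 (1-5, 2-4, 3-6) and 656 (1-5, 2-6, 3-4), and other matchings stayed within 1.5 times. Probe sets with non-overlapping groups, 264 higher and 295 lower after cold, became 119 and 149 without the dimmest 50%, 2628 and 3140 when after 2 and before 6 were both left out, and 404 to 2209 higher and 389 to 2887 lower on leaving out each array. Dropping probe sets lowers such counts by construction, and with fewer arrays groups separate more easily. The cause of the other shifts was not tested. What dim signal limits was not tested either.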
